A study of Homo sapiens with 6 samples.

Results

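PDX1, NKX2-2, NKX6-1, ISL1, MNX1, MAFA, INSM1 and NEUROD1 are 8 transcription factor genes of the islet endocrine lineage. They were grouped as compact islet lineage transcription factors, so their compactness belongs to the choice of genes. Their transcript models were examined in an assembly from EndoC-βH1, an established line of human beta cells. The members were taken by gene name, 8 of the 25211 gene names in the assembly, and every transcript model that carries one of these names was used, 9 of 55083 models in all. The study compared INS-KD cells with Negative Control cells, 3 libraries each. An shRNA against the INS promoter was delivered by lentivirus. INS-KD cells received 1 mg/mL doxycycline for 7 days and Negative Control cells, under the same protocol text, received none, so the effects of drug and hairpin cannot be told apart. The labels list no doxycycline-treated cells without the hairpin and describe the replicates only by number.

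The file analysed is the authors' merged assembly of the 6 libraries. It gives exon positions on hg19 and no abundance, so the level of these genes in each library and their difference between INS-KD and Negative Control cells were not analysed here, and beta cell identity could not be checked against marker levels. Depth is unknown, and no value below has a replicate. Genes were set beside the 19132 gene names with a coding RefSeq transcript on chromosomes 1 to 22, X and Y, called all coding genes below.

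Transcription factors of the islet lineage act in sequence and together. PDX1 marks the pancreatic progenitors and later activates insulin transcription in beta cells. NKX2-2, NKX6-1, MNX1 and ISL1 help to establish or keep endocrine and beta cell identity, INSM1 and NEUROD1 act in endocrine differentiation, and MAFA activates insulin transcription in mature beta cells. PDX1, NKX2-2, NKX6-1, MNX1 and ISL1 bind DNA through a homeodomain, a fold whose recognition helix lies in the major groove, and ISL1 also has LIM domains. MAFA is a basic leucine zipper protein, INSM1 a zinc finger protein and NEUROD1 a basic helix-loop-helix protein.

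The stretch of coding sequence that carries the recognition helix is shown for PDX1, ISL1 and MNX1, since these bases hold the DNA-contacting part and, in MNX1, a splice junction. The lines run 5′ to 3′ on the coding strand from codon 41 to codon 60 of the homeobox, the 180 bases that encode the homeodomain. Capitals mark the 18 bases of the helix pattern by which the homeobox was located. The sequence was read from GRCh37, the build hg19, through the coding positions of GENCODE.
PDX1: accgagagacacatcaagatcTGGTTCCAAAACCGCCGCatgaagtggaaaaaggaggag
ISL1: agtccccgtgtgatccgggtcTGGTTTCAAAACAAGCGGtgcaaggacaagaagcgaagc
MNX1: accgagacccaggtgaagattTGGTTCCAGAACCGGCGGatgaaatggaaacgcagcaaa
Over the whole homeobox the 10 pairs of the 5 homeodomain members shared 39.4 to 66.1% of the 180 bases, with a median of 51.7%. By bases PDX1 and MNX1 were the closest pair, with 119 identical, and ISL1 and MNX1 the most distant, with 71. After translation PDX1 and MNX1 were again closest, with 37 of 60 identical residues. NKX6-1 and ISL1 were then the most distant, with 13, and ISL1 and MNX1 shared 15. In the capital stretch PDX1 and MNX1 shared 15 of 18 bases, PDX1 and ISL1 shared 13, and ISL1 and MNX1 shared 14. The search pattern fixes or limits every residue of this stretch, so identity there is set in part by the search.

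The 8 genes were described in the assembly by reference transcripts alone. PDX1, NKX2-2, NKX6-1, ISL1, MAFA, INSM1 and NEUROD1 had 1 RefSeq transcript each, and MNX1 had 2. Thus 7 of 8 members (87.5%, exact Clopper-Pearson 95% interval 47.3 to 99.7%) had 1 reference transcript, against 54.6% of all coding genes. No joined model, one of Cufflinks class j that shares at least 1 splice junction with a RefSeq transcript but differs from it in its introns, occurred among the 6 members with introns (0 of 6, upper 95% limit 45.9%), against 14.1% of coding genes with introns. Intervals cover counting error only, and a reference model in the file does not show that the gene was expressed, since no level is given.

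Gene spans ran from 2373 bases for MAFA to 11606 bases for ISL1, with a median of 4756 against 23295 for all coding genes. Below the span of each member lay 8.15% of all coding genes for MAFA, 9.87% for INSM1, 10.5% for NKX2-2, 15.5% for NEUROD1, 16.7% for NKX6-1, 19.0% for MNX1, 20.5% for PDX1 and 32.7% for ISL1. In the deposited models all 8 members were thus shorter than the median coding gene, and ISL1 was the least compact. Because the group was chosen as compact, its short spans and few exons describe that choice and are no independent finding. Over all GENCODE transcripts of the gene name, spans were 16613 bases for MNX1, 12533 for NEUROD1, 11551 for MAFA and 11283 for ISL1. They were 7308 for NKX6-1, 6314 for PDX1, 3048 for NKX2-2 and 2846 for INSM1, and were not computed for all coding genes. In GENCODE, MNX1, NEUROD1 and MAFA were thus wider than ISL1. Spliced lengths were closer than spans, with a median longest transcript of 2473 bases in the members and 2739.5 in all coding genes. With the shortest reference transcript of each gene the order turned, at 2473 against 2419. The members had a median of 2 exons, against 8, 5 of 8 (62.5%) had at most 2, against 12.1% of all coding genes, and 7 of 8 (87.5%) had at most 3, against 19.1%. The longest intron of the 6 members with introns measured 925 to 3711 bases (median 2440.5), against a median of 9489.5.

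**Figure D1:**
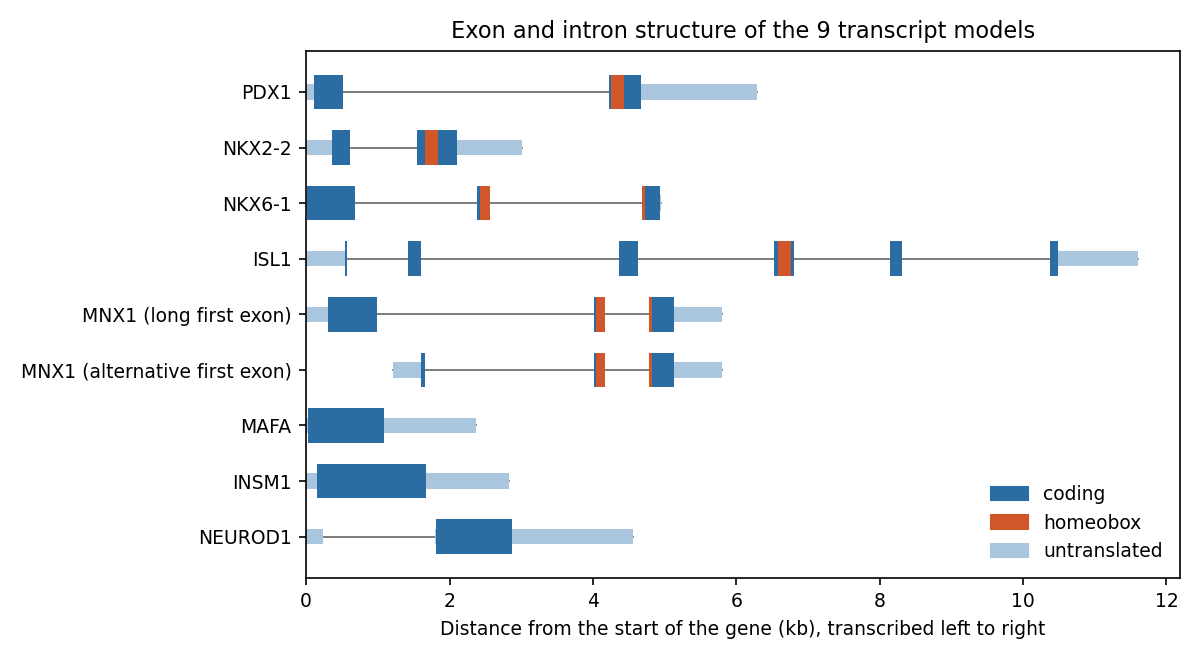
Structure of the 9 models, to scale, in kb from the start of each gene and read left to right; tall boxes are coding, orange is the homeobox, low boxes are untranslated and lines are introns. MAFA and INSM1 have 1 exon, ISL1 has 6, and both MNX1 models share their last 2 exons.

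Among the homeodomain genes, PDX1 lay on chromosome 13 from 28494168 to 28500451 on the plus strand, with exons of 514 and 2059 bases and an intron of 3711 bases. Its 283 codons were divided by the intron after coding base 406, within a codon, and the homeobox (codons 146 to 205) lay wholly in exon 2. NKX2-2 lay on chromosome 20 from 21491660 to 21494664 on the minus strand, with exons of 616 and 1464 bases and an intron of 925 bases, the shortest of the longest introns among the members. Its 273 codons were divided after coding base 259, and its homeobox (codons 128 to 187) also lay wholly in exon 2. Both genes thus keep the homeobox apart from the splice junction.

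ISL1 lay on chromosome 5 from 50678958 to 50690563 on the plus strand, with 6 exons, all of them coding, and introns of 841 to 2759 bases. The first exon held 28 coding bases of its 576, and the homeobox (codons 181 to 240 of 349) lay wholly in exon 4. ISL1 had the most introns of the 8, and 23.4% of its span was exonic. In PDX1 the exonic share was 40.9% and in NKX2-2 it was 69.2%.

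NKX6-1 lay on chromosome 4 from 85414436 to 85419387 on the minus strand, with exons of 676, 173 and 267 bases. Of its 1116 spliced bases 98.7% were coding, a share above that of 97.9% of coding genes with a GENCODE match, whose median was 53.3%. The model held 6 bases before the coding part and 9 after it, stop codon included. The GENCODE transcript with the same introns began 1058 bases further upstream and ended 1298 bases further downstream, so the deposited model is nearly bare coding sequence and lies inside a longer annotated transcript. In the deposited models NKX6-1 had the shortest spliced length of the 8, a rank that rests on these short ends.

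MNX1 lay on chromosome 7 from 156797547 to 156803347 on the minus strand and was the only member with alternative transcripts. The models began 1218 bases apart and joined a different first exon, of 994 or 438 bases, to the same exons of 161 and 1021 bases. They shared 1182 spliced bases, and 512 coding bases in the same frame followed 691 or 55 coding bases of the first exon. The longer model encoded 401 codons with the homeobox at codons 241 to 300, and the shorter 189 codons with the homeobox at codons 29 to 88. The homeobox itself was the same in both, and the models differed in the coding part before it. The file placed the models in separate start site groups.

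In NKX6-1 and MNX1 an intron cut through the homeobox, between codons, shortly before the bases of the helix pattern. The cut came before codon 47 of the homeobox in NKX6-1, at an intron of 2122 bases, and before codon 45 in MNX1, at an intron of 605 bases. The MNX1 junction is shown with 15 exon bases and 15 intron bases at each end, and capitals mark the first and last 2 bases of the intron.
MNX1 donor, chr7:156798568-156799172, minus strand: ctcaccgagacccagGTgcgcgccctcccc
MNX1 acceptor: cgcttgtgcccgcAGgtgaagatttggttc
Read against the MNX1 helix line above, the exon side of the donor ends and that of the acceptor begins inside the stretch from codon 41 to codon 60. All 13 distinct introns of the members began with GT and ended with AG.

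NKX6, NKX2 and ISL genes each matched the member of their family in this intron, whereas CDX genes differed from PDX1. Of the listed relatives in which the helix pattern was found, NKX6-2 and NKX6-3 had their homeobox intron before codon 47, as NKX6-1 did, and NKX2-1, NKX2-3, NKX2-4, NKX2-5, NKX2-6 and NKX2-8 had none there, as NKX2-2 did. ISL2 had none, as ISL1 did, whereas LHX3 and LHX4, other LIM homeodomain genes, had one before codon 47. GSX1 and GSX2 had none, as PDX1 did, and CDX1, CDX2 and CDX4 had one before codon 45, as MNX1 did. Across the 139 gene names whose coding part held the pattern, 72 (51.8%) had no intron in the homeobox, 32 (23.0%) had an intron before codon 47 alone and 23 (16.5%) had one before codon 45 alone. The pattern of 6 residues is short and is also met outside homeobox genes, so these 139 are not a list of homeobox genes.

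**Figure D2:**
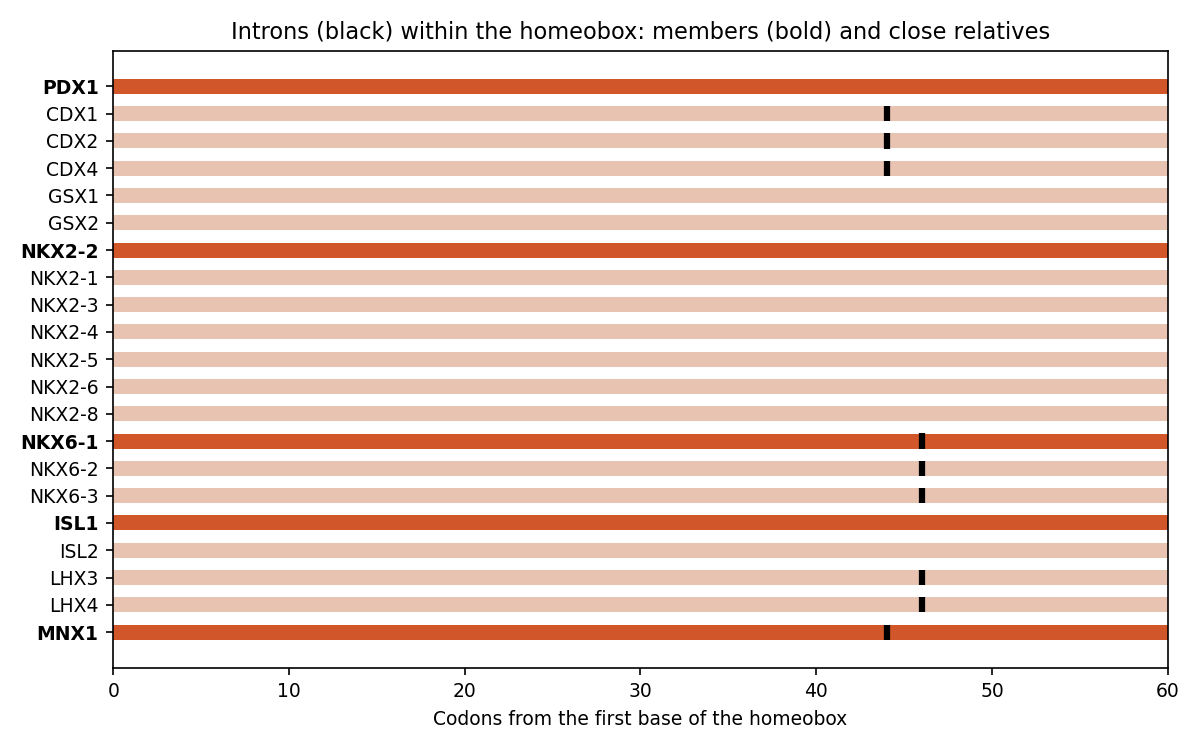
Position of introns (black marks) along the 60 codons of the homeobox in the 5 homeodomain members (bold, dark bars) and their listed relatives (pale bars). The mark before codon 47 is shared by NKX6-1, NKX6-2, NKX6-3, LHX3 and LHX4, and the mark before codon 45 by MNX1, CDX1, CDX2 and CDX4.

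The members of the other DNA-binding classes had undivided coding parts. MAFA lay on chromosome 8 from 144510230 to 144512602 on the minus strand, 1 exon of 2373 bases with 353 codons. INSM1 lay on chromosome 20 from 20348765 to 20351592 on the plus strand, 1 exon of 2828 bases with 510 codons, the longest coding part of the 8. Genes whose models all have 1 exon made up 2 of 8 members (25%), against 6.22% of all coding genes. NEUROD1 lay on chromosome 2 from 182540833 to 182545392 on the minus strand, with an untranslated first exon of 236 bases, an intron of 1558 bases and a second exon of 2766 bases that held all 356 codons. The NEUROD1 coding part began 11 bases into that exon.

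Relatives of these 3 genes had the same build in part. INSM2 had 1 exon, MAF had a transcript of 1 exon and another of 2, and NEUROD2, NEUROD4 and NEUROD6 had 1 intron each. Of the homeodomain relatives, GSX1, GSX2, NKX2-3, NKX2-4, NKX2-6, NKX2-8 and NKX6-3 also had 1 intron, and NKX2-5, with 3 reference transcripts, had the most models on that list. Over the 24 listed relatives of the members the median span was 3987.5 bases, the median exon number was 2, and 20 (83.3%) had 1 reference transcript. The widest were LHX4 with 44756 bases, LHX2 with 21554 and CDX1 with 17778. The 26 other listed islet transcription factors had a median span of 32198.5 bases and a median of 8 exons, led by GLIS3 with 475908, RFX3 with 307705 and ST18 with 299048 bases. POU3F4 had 1 exon, and NEUROG3, FOXA1, PTF1A and ONECUT1 had 1 intron. TCF7L2, with 13 reference transcripts and 4 joined models, HNF4A with 10 reference transcripts and PAX6 with 7 and 1 joined model had the most models. These differences between lists were not tested.

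**Figure D3:**
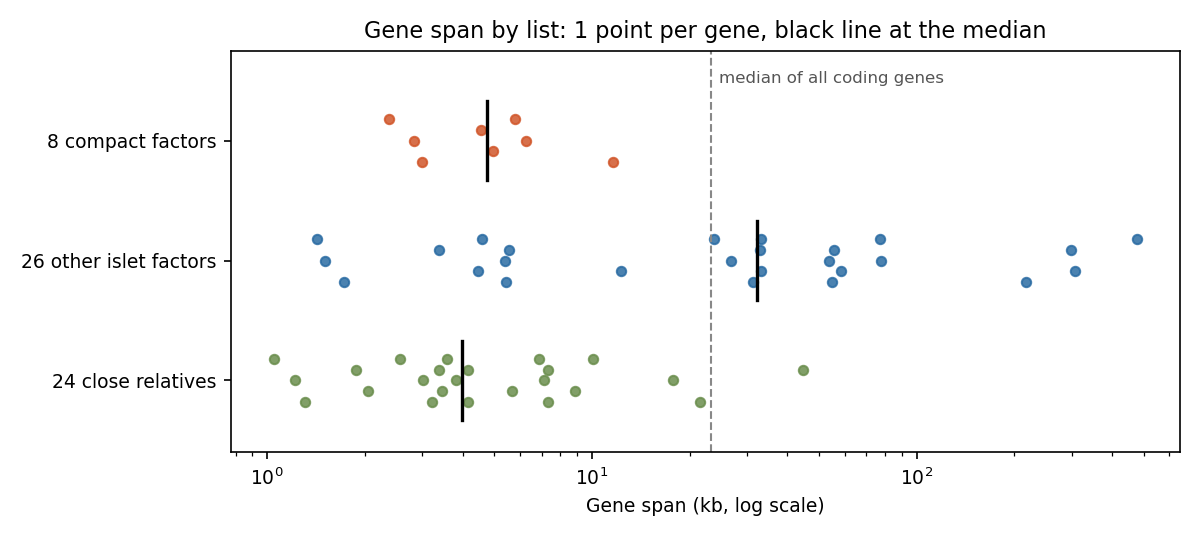
Gene span in kb on a log axis, 1 point per gene, for the 8 members, the 26 other islet transcription factors and the 24 close relatives; black lines are medians and the dashed line is the median of all coding genes. All 8 members, a group chosen as compact, lie left of the dashed line, whereas the other islet factors lie on both sides.

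Noncoding genes began beside PDX1, ISL1 and MNX1, and in each case head to head, counted here as opposite strands with starts within 5 kb and each gene running past the start of the other or away from it. MNX1-AS1 ran away from MNX1 with no overlap, whereas PDX1-AS1 and LOC642366 began inside the coding gene and ran back across its start. A noncoding gene, one with RefSeq NR accessions alone, thus lay within 5 kb of 3 of 8 members (37.5%, 95% interval 8.52 to 75.5%), against 18.6% of all coding genes. The same measure gave 8 of 26 (30.8%) for the other islet factors and 3 of 24 (12.5%) for the relatives. A head-to-head noncoding gene lay at the same 3 members (37.5%), against 5.54% of all coding genes. Any other gene name, coding or noncoding, lay within 5 kb of these 3 members alone (37.5%), and of 9 of 26 other islet factors (34.6%), 6 of 24 relatives (25%) and 56.9% of all coding genes. Of the other islet factors 3 of 26 (11.5%) had a head-to-head noncoding gene, PAX6, GATA6 and SOX9, and of the relatives 1 of 24 (4.17%), NKX2-1. With a window of 1 kb between the starts, 2 of 8 members remained, ISL1 and MNX1.

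PDX1-AS1 overlapped the start of PDX1. It ran from 28495541 down to 28403896 on the minus strand, 91646 bases with 4 exons and 2002 spliced bases. Its first exon of 241 bases lay wholly in the PDX1 intron, 619 bases beyond PDX1 exon 1, and its first intron of 72627 bases passed over PDX1 exon 1 and the PDX1 start. The transcripts shared 1374 bases of span and 0 exon bases. In GENCODE the gene, named PLUT there, began 4106 bases further from PDX1, at 28491435, which leaves 2732 bases between it and the PDX1 start. The overlap with PDX1 is therefore a property of the deposited model and not of the GENCODE gene.

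LOC642366, named ISL1-DT in GENCODE, overlapped the first exon of ISL1. It ran from 50679166 down to 50668571 on the minus strand, with exons of 359 and 6339 bases. Its first exon shared 209 bases with ISL1 exon 1, 36.3% of that exon and 7.69% of the ISL1 spliced length. Among the genes of the deposited file, no other member shared exon bases with a gene on the opposite strand. The GENCODE transcript with the ISL1 introns began 324 bases further downstream, which leaves 115 bases between it and the LOC642366 start. Neither the template-switching cDNA kit nor the transposase kit named in the labels marks the strand, so reads from the shared bases could not be assigned to either gene.

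MNX1-AS1 began 204 bases from the longer MNX1 model and did not overlap it. It ran from 156803551 to 156809118 on the plus strand, with exons of 451 and 536 bases. In GENCODE the distance from the MNX1 model to the MNX1-AS1 start was 152 bases. The 203 bases between the starts, chr7:156803348-156803550 on hg19, are shown on the plus strand, from MNX1 on the left to MNX1-AS1 on the right, since they are the whole space that separates the divergent transcripts. Capitals mark matches to CCAAT and GGGCGG on either strand.
MNX1 to MNX1-AS1: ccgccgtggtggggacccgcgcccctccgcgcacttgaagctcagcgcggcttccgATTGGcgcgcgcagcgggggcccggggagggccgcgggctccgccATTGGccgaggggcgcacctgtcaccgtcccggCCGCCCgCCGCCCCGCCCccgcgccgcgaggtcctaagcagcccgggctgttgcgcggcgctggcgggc
The stretch had a GC content of 81.3% and 34 CpG dinucleotides. It held ATTGG, the reverse complement of CCAAT, at bases 57 and 102 from the left. CCGCCC, the reverse complement of GGGCGG, lay at bases 135, 142 and 147, the last 2 of which share a base.

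**Figure D4:**
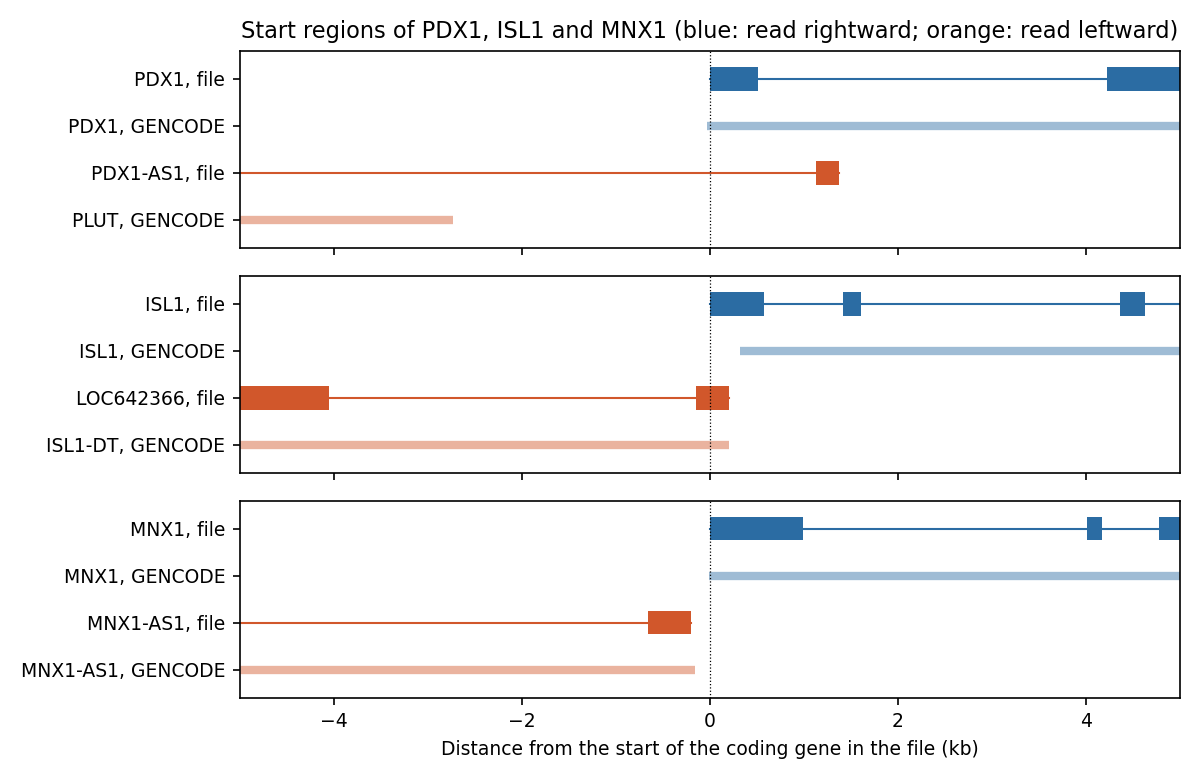
Start regions of PDX1, ISL1 and MNX1 within 5 kb on either side of the start of the coding gene in the file; blue is the coding gene, read rightward, and orange the noncoding gene, read leftward, with exons as boxes for the file and spans as pale bars for GENCODE. PDX1-AS1 begins 1373 bases inside PDX1 in the file, whereas PLUT begins outside it in GENCODE.

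The bases upstream of PDX1 lay inside the first intron of PDX1-AS1. They are shown from chr13:28493918-28494136 on the plus strand, which ends where the GENCODE transcript of PDX1 starts, with capitals for matches to CCAAT and to CACGTG, an E-box form that reads the same on both strands.
PDX1 upstream: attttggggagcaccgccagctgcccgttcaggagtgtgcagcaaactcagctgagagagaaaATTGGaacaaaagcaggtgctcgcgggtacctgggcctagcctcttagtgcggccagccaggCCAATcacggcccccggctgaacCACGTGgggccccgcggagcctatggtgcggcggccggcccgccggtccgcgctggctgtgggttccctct
In the 250 bases upstream of the model starts, CACGTG occurred at 4 of 8 members, PDX1, NKX2-2, MAFA and NEUROD1, and at 6.90% of all coding genes. CCAAT or ATTGG occurred at PDX1, MNX1 and INSM1 and at 32.7% of all coding genes. GGGCGG or CCGCCC occurred at 6 of 8 members, all but PDX1 and NKX6-1, and at 52.6% of all coding genes. TATAAA or TTTATA and the palindrome TAATTA occurred at 0 of 8 members and at 8.85% and 3.31% of all coding genes. At MAFA and NKX6-1 this window lay inside the matched GENCODE transcript, which began 300 and 1058 bases further upstream. The MAFA match to CACGTG was thus within an annotated exon. At NEUROD1 and ISL1 the matched transcript began 148 and 324 bases downstream of the model start. In these windows the median CpG count was 28 in the members and 16 in all coding genes, and CACGTG and GGGCGG each hold a CpG. Whether motif counts follow base composition was not tested. The motif search was not among the planned measures, and a match is a description of these letters in this window.

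The remaining 5 members had no other gene name of the file within 5 kb. The nearest gene name was 7223 bases from MAFA (ZC3H3), 7419 from INSM1 (C20orf26), 18999 from NEUROD1 (CERKL), 55998 from NKX2-2 (LOC101929625) and 84670 from NKX6-1 (CDS1). Of all coding genes 95.6% had a nearer neighbour than NKX6-1, 92.7% than NKX2-2, 79.1% than NEUROD1, 63.1% than INSM1 and 62.5% than MAFA. On their other side lay RHPN1 for MAFA, RALGAPA2 for INSM1, SSFA2 for NEUROD1, NKX2-4 for NKX2-2 and AGPAT9 for NKX6-1. For PDX1 the next names beyond PDX1-AS1 were GSX1 and, downstream, ATP5EP2 and then CDX2, both GSX1 and CDX2 being relatives of PDX1 on the list. LOC100287592 and PELO flanked ISL1, and NOM1 lay on the far side of MNX1.

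GENCODE placed more noncoding genes near the members than the deposited models did. It held a long noncoding RNA gene within 5 kb of 5 of 8 members (62.5%), and within 5 kb of 46.0% of all coding genes. Those at PDX1, ISL1 and MNX1 were the genes above, and MNX1 had in addition MNX1-AS2 inside it. NKX2-2 had NKX2-2-AS1 inside it, with a second, unnamed gene, and NEUROD1 had an unnamed gene that began 2448 bases from it, head to head. MAFA, INSM1 and NKX6-1 had none by this measure. The GENCODE gene CERKL reached from 182399768 to 182545392, so that on the same strand it contained all of NEUROD1 and began at the same base as the NEUROD1 model, whereas CERKL in the file began 18999 bases beyond the NEUROD1 end. All 7 multi-exon models of the members had their full intron chain in GENCODE (95% interval 59.0 to 100%), against 89.6% of 38613 multi-exon reference transcripts of coding genes.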

How the data were processed

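Expression profiling by sequencing of 6 EndoC-βH1 libraries (3 INS-KD, 3 Negative Control) was deposited by the authors as 1 merged transcript file. Per the labels, 10 ng of RNA went into full-length cDNA synthesis. The deposited values are hg19 positions of exon ends. Per the submitters' processing notes, TopHat2 and Cufflinks were used with hg19, and their settings are not stated. All 555595 lines are exons and 0 carry a score, so no depth, precision, replicate spread or expression test could be had.

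Models were rebuilt with Python 3.11.15 and numpy 2.4.6, and exact intervals came from scipy 1.17.1. Coding parts came from GENCODE release 44 transcripts with identical introns (for 1-exon models, an overlapping 1-exon transcript of the same name), and sequence from GRCh37. The homeobox was located by a pattern of 6 helix residues in the translated frame. Measures were tested on simulated data. Members and lists were chosen with earlier results of these data known. Named genes were the members, their neighbours, and listed relatives and islet factors with 1 exon or 1 intron, the widest spans or the most models. Windows, transcript choice, sequences used and annotation were varied. Some listed items are not reported here.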

Additional observations from a re-analysis of the deposited data

How the results depend on the processing

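No paired analysis was possible because the 6 libraries appear only as 1 merged set of models without levels, and for that reason no replicate could be left out. Of 19 alternatives to 9 results, 18 were planned and 1, the use of GENCODE noncoding genes, was chosen after seeing the data. The value of the members was identical under 16, in part by construction. Adding the other sequences of the file could change only the values of all coding genes, and the choice of transcript could act on MNX1 alone. The value of the members changed with a window of 1 kb for head-to-head genes (25%, against 4.08% of all coding genes), with GENCODE genes (62.5% against 46.0%) and with mean in place of longest introns (median 1847.9 against 3178.6 bases). Each stayed within the exact interval or within 1.5 times of the reported value. For 3 of 8 members that interval runs from 8.52 to 75.5%, so staying within it is a weak check. With windows of 10 and 50 kb for any noncoding gene, 37.5% of members stood against 21.8% and 39.8% of all coding genes. With 8 genes every share has a wide interval. Transcript ends set the reported overlaps, which rest on the models as deposited.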

Other observations

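Most members were rich in G and C. The spliced sequence had a GC content of 68.6% in MNX1, 67.9% in NKX6-1, 65.4% in MAFA, 63.2% in INSM1, 59.0% in PDX1, 57.3% in NKX2-2, 47.8% in ISL1 and 42.2% in NEUROD1, against a median of 49.8% in all coding genes. ISL1 and NEUROD1 were thus the 2 members below that median. The NKX6-1 model was 98.7% coding, against a median of 53.3%, so its value is nearly that of coding sequence alone. The ratio of observed to expected CpG in the spliced sequence had a median of 0.835 in the members and 0.412 in all coding genes, and ranged from 0.670 in PDX1 to 1.01 in MNX1. In the 250 bases upstream of the model start the median GC content was 71.4% in the members and 61.2% in all coding genes, with 82.8% at MAFA and 78.4% at MNX1 as the highest values. The windows of MAFA and NKX6-1 lay inside the matched GENCODE transcripts, so their values are not those of sequence before the GENCODE start.

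GENCODE listed 8 transcripts for MNX1, 5 for NEUROD1, 3 for ISL1, 2 each for NKX6-1 and MAFA and 1 each for PDX1, NKX2-2 and INSM1, where the deposited file had 2 for MNX1 and 1 for each of the others. Its transcript start lay within 50 bases of the deposited start at 4 of 8 members, PDX1, NKX2-2, MNX1 and INSM1, and at 66.2% of coding genes with a match. It lay 300 bases upstream at MAFA and 148 bases downstream at NEUROD1.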
